A study of Mus musculus with 8 samples.

Results

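The major urinary proteins are a family of small lipocalins encoded by a tandem array of closely related genes. The 9 symbols described here, Mup1, Mup2, Mup7, Mup9, Mup10, Mup11, Mup12, Mup13 and Mup15, were chosen with the difference between the genotypes already known, so their own genotype values are given as a description, no p-value of a single member is printed, and calls are only counted beside the background. Rows were taken where the gene symbol of the deposited expression table equalled one of these names. This gave 12 rows of 13703 in the table, or 9 of its 13696 distinct symbols, because Mup13 stood on 4 rows, which were kept apart.

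The table comes from bulk RNA sequencing of mouse liver in 4 libraries labelled Alb-Cre Bicd2fl/fl and 4 labelled Alb-WT Bicd2fl/fl. Both groups carry loxP-flanked Bicd2, a gene for an adaptor of the dynein motor. Alb-Cre is a Cre recombinase driven by the albumin promoter, which is active in hepatocytes, and Alb-WT is the comparison group without that label. All mice had S-100-induced chronic autoimmune hepatitis, for which a soluble liver extract named S-100 was emulsified in complete Freund's adjuvant and injected intraperitoneally into both groups, 2.5 mg each week over 3 weeks. Livers were collected 2 weeks after the final injection. The sources used here give neither the age nor the sex of the mice, and no untreated liver was analysed here. The labels do not say whether each library is a different animal, so p-values here measure only how far these samples spread, which may be technical. In bulk liver, fewer cells of a type and less RNA per cell cannot be told apart.

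Major urinary proteins are made by hepatocytes, secreted into blood and passed into urine, where they carry volatile pheromones in the lipocalin pocket and act as scent signals themselves. In mouse liver they are classic male-biased transcripts: pulsatile growth hormone, acting through its receptor, JAK2 and STAT5B, keeps them high in males, and androgens, thyroid hormone and glucocorticoids also affect them. The central genes of the array are nearly identical to each other, whereas the genes at its edges, such as Mup3, Mup20 (whose protein is the male pheromone darcin) and Mup21, are more diverged.

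In the GENCODE M21 annotation of GRCm38 the family lies on chromosome 4 between 59956804 and 62150863, with 22 protein-coding genes and 26 pseudogenes. The 9 members lie within 1.37 Mb of it, from 60066469 to 61439743, all on the minus strand. The coding sequences of any 2 members were 98.3% to 99.6% identical (median 99.1% over 36 pairs), with 1 to 9 mismatches and 0 identical pairs. Central genes outside the 9 (Mup8, Mup14, Mup16, Mup17, Mup18, Mup19 and Mup22) were as close to the members, at 98.2% to 99.8% over 63 pairs. Identity of the members with the edge genes was lower, at 90.1% to 91.3% with Mup20, 83.6% to 84.7% with Mup21 and 82.1% to 83.3% with Mup3.

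Promoters were available from RefSeq (GRCm38.p6) for 6 of the 9 members, namely Mup2, Mup7, Mup9, Mup10, Mup11 and Mup15. They were 93.6% to 98.5% identical to each other (median 97.4% over 15 pairs), and 76.2% to 84.1% identical to the Mup3 promoter. Promoters of central genes outside the 9 were about as close to them. Identity was 94.6% to 98.9% for Mup17, 93.4% to 99.0% for Mup19, 90.9% to 96.0% for Mup18 and 89.9% to 97.2% for Mup14. Shown are the 150 bases before the RefSeq start of the member with the largest difference between Alb-Cre replicates 1 to 3 and Alb-WT (Mup15, chr4:61439705-61439854), another with a large difference (Mup9, chr4:60421953-60422102), the member with the smallest (Mup10, chr4:60582156-60582305), the most abundant member (Mup7, chr4:60070476-60070625) and the diverged Mup3 (chr4:62087318-62087467). Each is written 5′ to 3′ on the minus strand, and capitals mark TATATAAG, a TATA-box-like word that was looked for after the sequences had been seen.
Mup15: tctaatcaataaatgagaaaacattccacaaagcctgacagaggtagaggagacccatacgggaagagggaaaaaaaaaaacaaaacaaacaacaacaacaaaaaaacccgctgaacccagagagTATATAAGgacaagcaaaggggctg
Mup9: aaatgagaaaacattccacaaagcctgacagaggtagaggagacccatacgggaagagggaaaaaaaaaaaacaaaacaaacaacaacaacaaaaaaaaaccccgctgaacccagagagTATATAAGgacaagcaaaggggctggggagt
Mup10: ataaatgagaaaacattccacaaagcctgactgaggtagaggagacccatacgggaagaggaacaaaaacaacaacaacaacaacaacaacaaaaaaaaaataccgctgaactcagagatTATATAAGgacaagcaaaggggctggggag
Mup7: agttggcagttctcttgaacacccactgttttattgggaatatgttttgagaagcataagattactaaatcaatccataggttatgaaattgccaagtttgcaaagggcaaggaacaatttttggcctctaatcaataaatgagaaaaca
Mup3: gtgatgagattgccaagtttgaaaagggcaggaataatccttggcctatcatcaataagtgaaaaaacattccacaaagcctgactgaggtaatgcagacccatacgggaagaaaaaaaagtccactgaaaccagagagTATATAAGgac

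The Mup15, Mup9 and Mup10 windows shared most of their letters, an A-rich stretch included, although the differences in level between the genotypes of these genes lay far apart. TATATAAG began 25 bases before the start in Mup15, 31 before it in Mup9, 30 in Mup10 and 27 in Mup2, and the Mup11 copy crossed its annotated start. The Mup7 entry begins further upstream and held no copy. In windows of 300 bases (250 before and 50 after the start), on either strand, 5 of the 6 members held TATATAAG, against 331 of 32851 promoters (1.01%), and so did 6 of the 8 other Mup promoters with an entry (75%). The STAT5-type word TTCNNNGAA was found in 0 of 6 (8.30% of all promoters), the word TATAAA in 0 of 6 (13.6%) and the C/EBP-type word TTGCNNAA in 0 of 6 (10.8%). TATATAAG overlaps no match of the other words here. These are matches of letters in short windows, and nothing follows from a missing match about binding of a factor.

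Identical stretches decide how far a fragment can be credited to a single gene. Of all 100-base windows of its transcripts, the share found in no other Mup gene was 2.66% for Mup15, 16.4% for Mup13, 22.5% for Mup12 and 23.9% for Mup7. For the other members it ran from 24.5% (Mup2) to 44.3% (Mup1). It was 61.2% for Mup20, 95.5% for Mup21 and 97.8% for Mup3. How the authors counted fragments shared by several genes is not given in the sources used here, so the level of a single member is uncertain. The member sum shares sequence with central genes outside it as well, and how far this affects the sum was not tested. The 4 rows named Mup13 had implied exon lengths of 927, 984, 1038 and 1064 bp. In GENCODE M21 each of these is the exon length of a single Mup gene, 984 bp being that of Mup13, 927 bp that of Mup17, 1038 bp that of Mup16 and 1064 bp that of Mup19. The rows of 1038 and 927 bp directly follow Mup15 in the deposited table, and the row of 1064 bp directly follows Mup18. On the chromosome Mup16 and Mup17 follow Mup15, and Mup19 follows Mup18. Length and place of these rows are thus those of Mup16, Mup17 and Mup19, although their deposited symbol is Mup13. All 4 rows are kept here as members by symbol and called by symbol and length. Which genes' fragments they hold was not tested further.

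Levels are given in FPKM, fragment numbers divided by gene length and library total. Totals behind these values were 32793770 to 39157210 fragments per library, and each member row held 143 to 521101 fragments in each library, so that counting error was small for most of them. The labels were checked on Bicd2, at 0.705, 0.568, 0.509 and 0.732 FPKM in Alb-Cre replicates 1 to 4 and 2.46 to 3.11 FPKM in Alb-WT (log2 fold change -1.24, SE 0.08, limma adjusted p = 7.25e-05). Alb-Cre replicate 4 stood apart from its group. Across genes its log2 values correlated at 0.958 to 0.960 with Alb-Cre replicates 1 to 3 and at 0.974 to 0.977 with the Alb-WT libraries, whereas replicates 1 to 3 correlated with each other at 0.995 to 0.996. Values are therefore given with and without that library.

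Summed over the 12 rows, the major urinary proteins stood at 24502, 23603 and 21080 FPKM in Alb-Cre replicates 1 to 3 and at 2205 FPKM in Alb-Cre replicate 4. The Alb-WT libraries stood at 3668, 3594, 3968 and 3607 FPKM. Alb-Cre replicates 1 to 3 were thus all above, and replicate 4 below, every Alb-WT library. As a share of all FPKM in the library the members made up 5.54%, 5.36%, 4.80% and 0.552% in Alb-Cre replicates 1 to 4, a mean of 4.06% ± 2.36 (SD, n = 4). In Alb-WT they made up 0.918%, 0.875%, 0.993% and 0.883%, a mean of 0.917% ± 0.054 (SD, n = 4). The ratio of the group means was 4.43, it was 5.71 without Alb-Cre replicate 4, and that library alone stood at 0.602 of the Alb-WT mean. Counted as fragments, which a long transcript gives more of, the members took 2.50%, 2.40%, 2.17% and 0.229% of the Alb-Cre totals and 0.372% to 0.410% of the Alb-WT totals. Relative to the summed FPKM of 32 other abundant secreted hepatocyte proteins the member sum was 20.9%, 20.5%, 17.4% and 1.88% in Alb-Cre, against 2.91% to 3.38% in Alb-WT, so replicates 1 to 3 were again above and replicate 4 below every Alb-WT library.

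The 8 other named Mup rows summed to 2.21 times the Alb-WT mean in Alb-Cre replicates 1 to 3 and to 0.445 of it in replicate 4, where the member sum stood at 6.22 times and 0.594. With these rows added, the family took 12.5%, 13.2%, 11.4% and 2.14% of all FPKM in Alb-Cre, against 4.31% to 4.52% in Alb-WT. The 12 member rows made 44.4%, 40.7% and 42.0% of that total in Alb-Cre replicates 1 to 3, 25.8% in replicate 4 and 19.6% to 22.4% in Alb-WT. Rows outside the family, with 4 Mup pseudogene rows left out as well, summed to 382333 to 390738 FPKM in Alb-Cre. In Alb-WT they summed to 381444 to 392275 FPKM. The larger FPKM sum over all rows of Alb-Cre replicates 1 to 3, 438797 to 442133 against 399391 to 410679 in Alb-WT, therefore lay in the Mup rows.

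**Figure D1:**
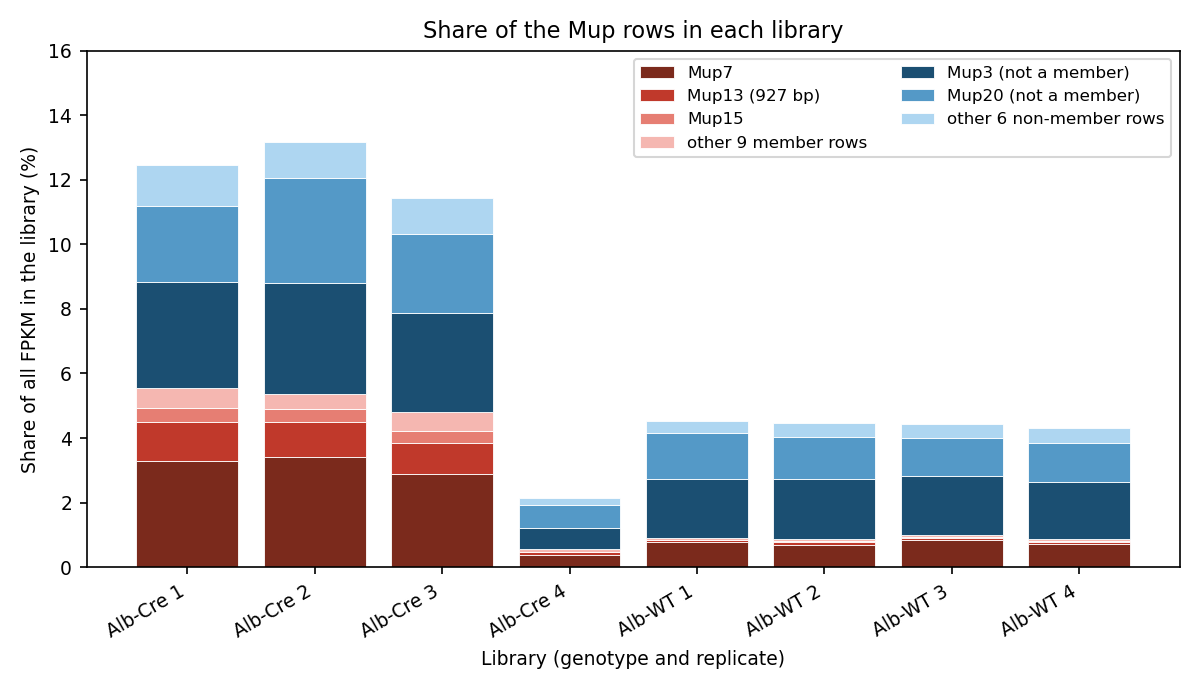
Share of all FPKM (percent, vertical axis) taken by the Mup rows in each of the 8 libraries, stacked, with member rows in red and non-member rows in blue. The stacks reach 11.4% to 13.2% in Alb-Cre replicates 1 to 3, 4.31% to 4.52% in Alb-WT and 2.14% in Alb-Cre replicate 4, with the red part at 4.80% to 5.54%, 0.875% to 0.993% and 0.552%.

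Mup7 was the most abundant member in every library. It stood at 14481, 15068 and 12647 FPKM in Alb-Cre replicates 1 to 3, at 1552 FPKM in replicate 4, and at 3118, 2774, 3416 and 2865 FPKM in Alb-WT. Alb-Cre replicates 1 to 3 were 4.62 times the Alb-WT mean, and replicate 4 was below all Alb-WT libraries at 0.510 of it. The log2 fold change over all 8 libraries was 1.42 (SE 0.66), and 2.21 without Alb-Cre replicate 4. All fold changes are on the scale of log2(FPKM + 1), which understates those of low rows.

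Next in abundance was the Mup13 row of 927 bp. It measured 5350, 4796, 4297 and 274 FPKM in Alb-Cre, against 241, 442, 238 and 370 FPKM in Alb-WT. Replicates 1 to 3 stood 14.9 times above the Alb-WT mean and replicate 4 within the Alb-WT range. The log2 fold change was 2.91 (SE 0.87), or 3.94 without replicate 4. The Mup13 row of 984 bp, the length annotated for Mup13 itself, was lower and differed less, at 488, 313, 385 and 68.3 FPKM in Alb-Cre and 96.6, 70.6, 81.4 and 93.4 FPKM in Alb-WT. Its log2 fold change was 1.56 (SE 0.53), or 2.18 without replicate 4, which lay below every Alb-WT library.

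The other Mup13 rows were again higher in Alb-Cre replicates 1 to 3. The row of 1038 bp gave 285, 233, 267 and 16.3 FPKM in Alb-Cre and 20.7, 22.1, 21.9 and 19.8 FPKM in Alb-WT, with replicate 4 below all Alb-WT libraries. The row of 1064 bp gave 638, 421, 632 and 79.0 FPKM in Alb-Cre and 33.4, 59.9, 53.5 and 42.0 FPKM in Alb-WT. In this last row every Alb-Cre library, replicate 4 included, was above every Alb-WT library. The log2 fold changes were 2.59 (SE 0.81) and 2.86 (SE 0.61), and 3.57 and 3.56 without replicate 4.

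Mup15 showed the largest relative difference and is also the member with the fewest windows of its own. It measured 1981, 1711, 1538 and 66.5 FPKM in Alb-Cre and 42.4, 72.7, 44.3 and 65.6 FPKM in Alb-WT. Alb-Cre replicates 1 to 3 stood 31.0 times above the Alb-WT mean, with replicate 4 inside the Alb-WT range. The log2 fold change was 3.79 (SE 0.98), or 4.96 without replicate 4. Mup9 was the other member in which all Alb-Cre libraries lay above all Alb-WT libraries. Its levels were 376, 228, 459 and 49.0 FPKM in Alb-Cre and 14.5, 36.2, 15.03 and 27.7 FPKM in Alb-WT, with a log2 fold change of 3.22 (SE 0.65), or 3.91 without replicate 4.

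Mup11, Mup12 and Mup1 held an intermediate place, with Alb-Cre replicate 4 inside the Alb-WT range in all 3. Mup11 measured 377, 340, 403 and 44.5 FPKM in Alb-Cre and 42.9, 58.2, 41.6 and 57.7 FPKM in Alb-WT. Mup12 measured 337, 354, 258 and 34.3 FPKM in Alb-Cre and 35.6, 27.7, 27.9 and 39.6 FPKM in Alb-WT. Mup1, whose circulating protein has been studied in glucose metabolism, measured 132, 80.5, 146 and 11.01 FPKM in Alb-Cre and 7.64, 15.2, 8.94 and 10.7 FPKM in Alb-WT. Replicates 1 to 3 were 7.45, 9.67 and 11.3 times the Alb-WT means of Mup11, Mup12 and Mup1, and the log2 fold changes over all libraries were 2.13 (SE 0.64), 2.45 (SE 0.66) and 2.55 (SE 0.71).

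Mup10 and Mup2, lowest of the members by their Alb-Cre mean, differed least on the log2 scale together with Mup7. Mup10 stood at 30.1, 32.6, 27.0 and 7.55 FPKM in Alb-Cre and 11.6, 10.3, 12.9 and 12.2 FPKM in Alb-WT. Mup2 stood at 25.6, 26.1, 21.6 and 2.73 FPKM in Alb-Cre and 4.15, 4.66, 6.46 and 3.54 FPKM in Alb-WT. In both, Alb-Cre replicates 1 to 3 were above and replicate 4 was below all Alb-WT libraries. The log2 fold changes were 0.82 (SE 0.39) for Mup10 and 1.49 (SE 0.58) for Mup2, and 1.28 and 2.18 without replicate 4.

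**Figure D2:**
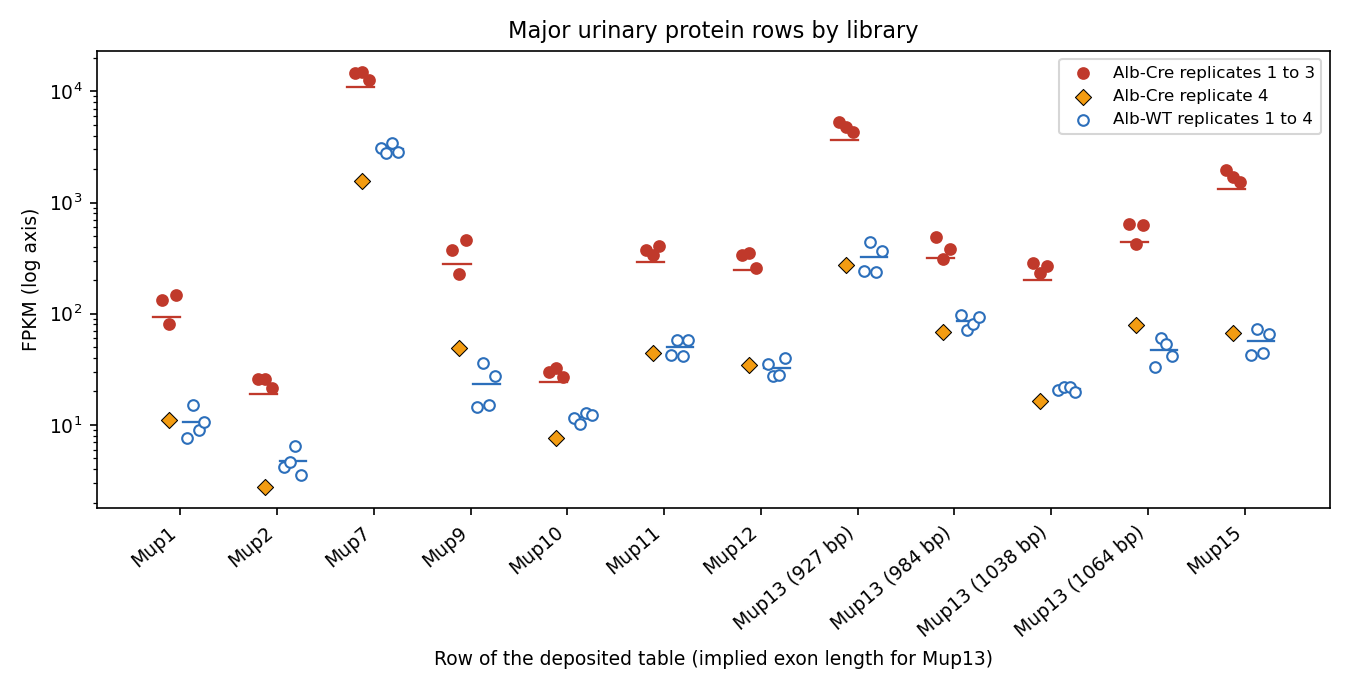
FPKM (log axis) of the 12 member rows in each library, with Alb-Cre replicates 1 to 3 as red circles, Alb-Cre replicate 4 as an orange diamond, Alb-WT as open blue circles and group means over all 4 libraries as lines. Red circles lie above all open circles in 12 of 12 rows, and the diamond lies near or below the open circles except in Mup9 and the Mup13 row of 1064 bp.

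Across the 12 rows, all of which passed the filter on low values (a mean of at least 0.5 FPKM), the median log2 fold change was 2.50 (0.82 to 3.79), beside -0.13 over all 11077 rows tested. Without Alb-Cre replicate 4 these medians were 3.30 (1.28 to 4.96) and -0.16. The fit called 8 of the 12 rows higher (limma, Benjamini-Hochberg adjusted p under 0.05) and 0 lower (10 and 0 at an unadjusted p under 0.05), while over all rows 8.48% were called higher and 23.3% lower. The 4 rows not called were Mup2, Mup7, Mup10 and the Mup13 row of 984 bp. Nothing is read from these counts, since the members were chosen on this contrast. Alb-Cre replicates 1 to 3 were above all Alb-WT libraries in 12 of 12 rows (14.6% of all rows). With replicate 4 included the groups did not overlap in 2 of 12 (9.27% of all rows). Replicate 4 was below all Alb-WT libraries in 5 of 12 rows (33.5% of all rows), within their range in 5 and above it in 2. In the same 5 of 12 rows replicates 1 to 3 were above and replicate 4 below all Alb-WT libraries, which held for 3.11% of all rows.

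**Figure D3:**
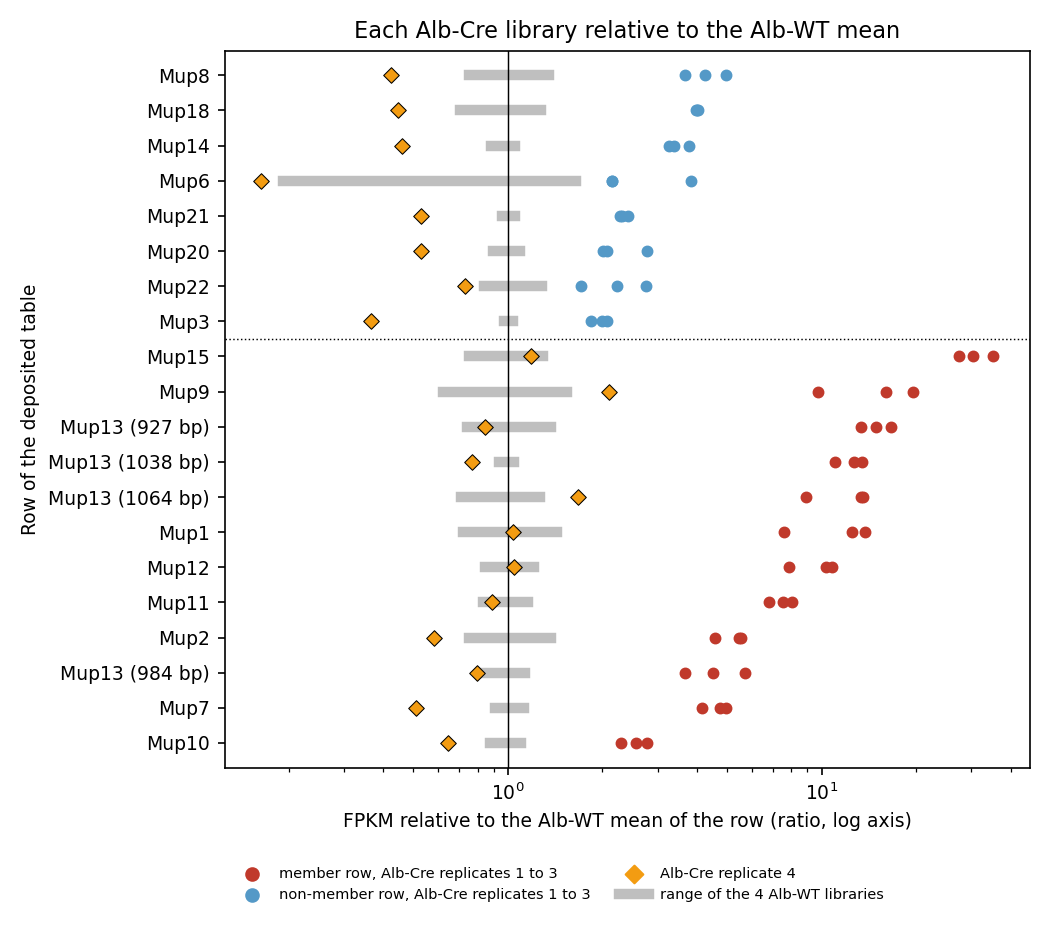
FPKM of each Alb-Cre library relative to the Alb-WT mean of the row (ratio, log axis), for the 12 member rows below the dotted line and the 8 other named Mup rows above it, with the grey bar spanning the 4 Alb-WT libraries. Means of replicates 1 to 3 run from 2.55 (Mup10) to 31.0 (Mup15) in member rows, and replicate 4 from 0.510 (Mup7) to 2.10 (Mup9).

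The make-up of the sum differed between the libraries as well. Mup7 supplied 77.2% to 86.1% of the member sum in Alb-WT, and in Alb-Cre it supplied 59.1%, 63.8%, 59.99% and 70.4%. The Mup13 row of 927 bp supplied 6.0% to 12.3% in Alb-WT, 21.8%, 20.3% and 20.4% in replicates 1 to 3, but 12.4% in replicate 4. Mup15 supplied 1.12% to 2.02% in Alb-WT, 8.08%, 7.25% and 7.30% in replicates 1 to 3, but 3.02% in replicate 4. For both of these rows replicate 4 was above the Alb-WT range in make-up, though not in level. Relative to Mup7, the level of Mup2 was 0.171% to 0.177% in the Alb-Cre libraries, within the 0.123% to 0.189% of Alb-WT. Mup10 was 0.208% to 0.217% of Mup7 in replicates 1 to 3, 0.486% in replicate 4 and 0.370% to 0.427% in Alb-WT.

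Members also varied among themselves within a genotype. In Alb-WT the coefficient of variation ran from 5.20% (Mup13 row of 1038 bp) to 44.95% (Mup9), while the sum was 3709 ± 175 FPKM (SD, n = 4). Alb-WT replicates 2 and 4 were above replicates 1 and 3 in Mup1, Mup9, Mup11, Mup15 and the Mup13 row of 927 bp, and below them in Mup7. A high value of those rows thus went with a low value of Mup7 in the same library. Outside the family, replicates 2 and 4 were also below 1 and 3 in Ddx3y and in the summed erythroid markers. The latter stood at 352, 257, 359 and 248 FPKM in Alb-WT replicates 1 to 4. Replicates 2 and 4 were above 1 and 3 in several secreted protein genes, Apoa2, Apoc1 and Ttr among them, and slightly below them in Alb. Igf1 showed no such split. The split was thus not confined to the Mup rows. Library totals were larger in replicates 2 and 4 (38882640 and 37053270 fragments) than in 1 and 3 (33534630 and 33278910). Whether the pattern in the Mup rows reflects the sharing of fragments among paralogs or a wider difference between these libraries was not tested.

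**Figure D4:**
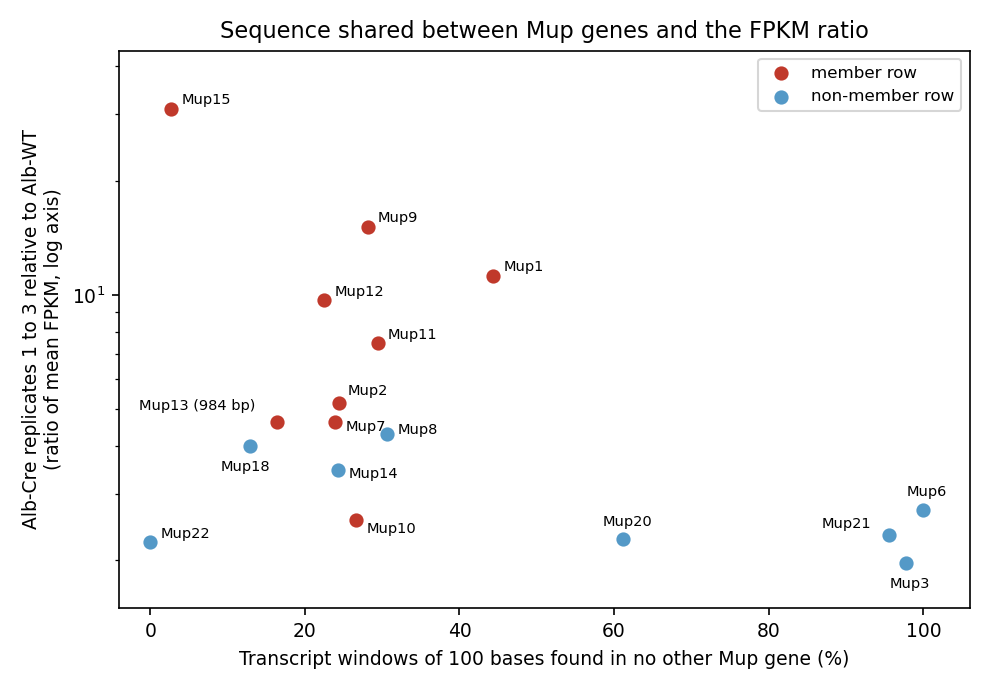
Share of 100-base transcript windows found in no other Mup gene (percent, horizontal axis) and ratio of mean FPKM in Alb-Cre replicates 1 to 3 to Alb-WT (log axis), for the 17 named Mup rows left when the 3 Mup13 rows of another gene's length are set aside. The 4 rows above 50% (Mup6, Mup20, Mup3, Mup21) had ratios of 1.97 to 2.71, the highest being Mup6 with 2 to 40 fragments in each library, and the 13 below it ran from 2.23 to 31.0. All rows above 50% are non-members, and most rows below it are members, chosen on this contrast.

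Ratios of the genes with mostly unique sequence could be set beside those of the members. Mup6, Mup20, Mup3 and Mup21, with over 50% of windows of their own, had ratios of Alb-Cre replicates 1 to 3 to Alb-WT of 1.97 to 2.71. Mup6 gave the 2.71 from 2 to 40 fragments in each library and fell below the filter on low values, and the other 3 genes ran from 1.97 to 2.34. The 13 rows with less unique sequence had ratios of 2.23 to 31.0. Most of these 13 are members, chosen on this contrast, whereas all rows over 50% are non-members. The upper end of the wider range is thus partly set by that choice. Non-members under 50% (Mup22, Mup14, Mup18 and Mup8) had ratios of 2.23 to 4.29. Among the 13, Mup22 had no window of its own (0%) and a ratio of 2.23, while Mup15 had 2.66% and 31.0. A small unique share thus did not go with a single size of ratio. Mup3 was measured at 14583, 15193, 13488 and 2690 FPKM in Alb-Cre and 7249, 7611, 7366 and 7105 FPKM in Alb-WT, and Mup20 at 10375, 14303, 10706 and 2734 FPKM against 5638, 5351, 4642 and 5055 FPKM. In both, replicates 1 to 3 lay above and replicate 4 below all Alb-WT libraries. Over all 8 libraries 0 of the 7 tested non-member genes were called (limma adjusted p = 0.138 to 0.592, 0 also at an unadjusted p under 0.05), and without Alb-Cre replicate 4 all 7 were called higher. Mup14 was the most abundant central gene among the non-member rows. It had 3939, 3528, 3402 and 481 FPKM in Alb-Cre and 925, 1057, 1100 and 1095 FPKM in Alb-WT. Its replicates 1 to 3 lay above and replicate 4 below every Alb-WT library.

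Genes next to the array were looked at for comparison. Of the 5 measured RefSeq genes on each side, 8 of 10 were tested, and 0 rose by limma's adjusted p (1 at an unadjusted p under 0.05) and 4 fell (Ptbp3, Snx30, Slc31a2 and Fkbp15), with a median log2 fold change of -0.27 (-0.55 to 0.21). Over all rows 8.48% were called higher and 23.3% lower, so 0 rises among so few genes tell little. Alb-Cre replicates 1 to 3 were above all Alb-WT libraries in 0 of these 10 (14.6% of all rows). Over the 689 rows whose exon length lay within that of the members (925 to 1584 bp) the median log2 fold change was 0.06, beside -0.13 over all rows. Of these length-matched rows 16.5% were called higher, against 8.48% of all rows. Whether transcript length has a part in the difference was not tested. Both comparisons were chosen after seeing the data.

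Markers of several other cell types also differed in Alb-Cre replicates 1 to 3. All 7 Kupffer cell markers were lower in Alb-Cre, with summed levels of 131, 125 and 137 FPKM in Alb-Cre replicates 1 to 3, 386 FPKM in replicate 4 and 445 to 474 FPKM in Alb-WT. The 4 neutrophil markers in the table, all lower, summed to 6.62, 6.69, 7.01 and 81.0 FPKM in Alb-Cre and 252 to 318 FPKM in Alb-WT. The 8 hepatocyte markers, of which 0 were higher and 2 lower by limma (0 and 4 at an unadjusted p under 0.05), summed to 42847 to 44356 FPKM in replicates 1 to 3, 31912 FPKM in replicate 4 and 41287 to 41942 FPKM in Alb-WT, so albumin and the other defining hepatocyte genes were present in all libraries. T cell markers, with 0 of 3 tested called by limma (1 lower at an unadjusted p under 0.05), summed to 0.856 to 1.36 FPKM in replicates 1 to 3, 5.18 FPKM in replicate 4 and 3.05 to 3.47 FPKM in Alb-WT. Of other marker lists, 3 of 4 monocyte, 4 of 4 cholangiocyte, 3 of 6 stellate cell, 2 of 5 sinusoidal endothelial and 1 of 2 erythroid genes tested were lower in Alb-Cre. Only 1 stellate cell gene and Obp2a, from the gland list, were higher, and 0 of 2 B cell genes were called (0 also at an unadjusted p under 0.05). The cell types' part in the difference of the major urinary proteins was not tested. Transcripts of the Y-linked genes Ddx3y, Eif2s3y, Kdm5d and Uty were present in all 8 libraries, Eif2s3y at 10.7 to 14.1 FPKM in each of them. Of these 4 sex chromosome genes 0 rose and 1 fell by limma (0 and 1 at an unadjusted p under 0.05), and 3 fell without Alb-Cre replicate 4. Ddx3y fell to 8.12, 8.90, 7.95 and 8.66 FPKM from 9.88 to 13.5 FPKM (log2 fold change -0.44, SE 0.10, limma adjusted p = 0.0133), a call lost with median-of-ratios scaling (limma adjusted p = 0.0802).

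The growth hormone pathway that drives these genes in normal liver did not move in a single direction. Of 30 listed genes of growth hormone, STAT5 and their partners 29 were tested, of which 6 rose and 7 fell (8.48% and 23.3% of all rows). Their median log2 fold change was -0.20, beside -0.13 over all rows. Without Alb-Cre replicate 4, 7 rose and 15 fell, while over all rows 15.2% were then called higher and 46.1% lower. Only 3 rose without Alb-Cre replicate 2, without Alb-WT replicate 2 or without Alb-WT replicate 3.

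Of the receptor and its kinase, Ghr, the growth hormone receptor, stood at 52.7, 52.1 and 50.8 FPKM in Alb-Cre replicates 1 to 3, 25.1 FPKM in replicate 4 and 47.1 to 51.2 FPKM in Alb-WT. It was not called, with a log2 fold change of -0.20 (SE 0.22, limma adjusted p = 0.492). Replicate 4 was the only library far from the others. Jak2, the kinase bound to the receptor, fell, with 3.01, 2.88, 3.01 and 4.57 FPKM in Alb-Cre and 4.87 to 5.55 FPKM in Alb-WT (log2 fold change -0.55, SE 0.12, limma adjusted p = 0.0115). Stat5b, the signal carrier of the male pattern, fell by 0.66 on the log2 scale (SE 0.06, limma adjusted p = 0.000255). It measured 7.62, 7.67, 8.52 and 8.22 FPKM in Alb-Cre and 13.05 to 13.3 FPKM in Alb-WT, and here replicate 4 lay with its group. Its close relative Stat5a had a log2 fold change of -0.22 (SE 0.10, limma adjusted p = 0.116) and did not pass.

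Igf1, Socs2 and Cish, targets or feedback genes of the pathway, had positive fold changes, and Igfbp1 a negative one. Igf1, the growth factor made by liver under growth hormone, rose, with 57.0, 61.7, 54.7 and 47.2 FPKM in Alb-Cre against 38.6 to 43.4 FPKM in Alb-WT (log2 fold change 0.42, SE 0.09, limma adjusted p = 0.0101). Socs2, a feedback inhibitor, had a log2 fold change of 0.28 (SE 0.09, limma adjusted p = 0.0472), a call lost in 8 of 16 alternatives, and Cish, another, had 0.33 (SE 0.20, limma adjusted p = 0.223). Igfbp1, an IGF binding protein, fell to 57.1, 64.0, 58.9 and 164 FPKM from 315 to 330 FPKM, a log2 fold change of -2.05 (SE 0.30, limma adjusted p = 0.00258).

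Among the transcription factors that shape sex-biased liver expression, Bcl6, a male-biased repressor of STAT5 targets, fell to 1.49, 1.204, 1.33 and 3.72 FPKM from 5.18 to 6.66 FPKM (log2 fold change -1.36, SE 0.23, limma adjusted p = 0.00415). Onecut1, which encodes HNF6, rose to 1.66, 1.63, 1.73 and 0.789 FPKM from 0.0853 to 0.281 FPKM (log2 fold change 1.07, SE 0.14, limma adjusted p = 0.00152). Both differences were smaller in replicate 4 than in the other Alb-Cre libraries. Foxa2 rose by 0.42 (SE 0.11, limma adjusted p = 0.0196), a call lost in 5 of 17 alternatives, and Hnf4a had -0.15 (SE 0.06, limma adjusted p = 0.0742). Cux2, a female-biased repressor, was at 0.0207 to 0.0477 FPKM and was not tested.

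Other male-biased liver genes were higher more often than lower. Of 26 listed genes 25 were tested, of which 8 rose and 0 fell by limma's adjusted p (9 and 1 at an unadjusted p under 0.05), with a median log2 fold change of 0.30. Over all rows 8.48% were called higher and 23.3% lower. Without Alb-Cre replicate 4, 17 rose and 2 fell, while over all rows 15.2% were then called higher and 46.1% lower. Only 5 rose without Alb-Cre replicate 1 or without Alb-WT replicate 1. The list was chosen with earlier results of these data known, so it is not an independent test. Nudt7, a peroxisomal hydrolase of coenzyme A, rose to 134, 134, 124 and 43.1 FPKM from 23.2 to 24.6 FPKM (log2 fold change 2.00, SE 0.33, limma adjusted p = 0.00408). Selenbp2, a selenium-binding protein, rose to 434, 416, 431 and 136 FPKM from 87.6 to 101 FPKM (log2 fold change 1.77, SE 0.34, limma adjusted p = 0.00789). In both, replicate 4 stood between the other Alb-Cre libraries and the Alb-WT libraries, unlike its place in most member rows. Its place differed within the list, however. Several listed genes that were not called, Hsd3b5 among them, had replicates 1 to 3 above and replicate 4 below every Alb-WT library, like the member sum. Serpina12, the adipokine vaspin, rose by 1.199 on the log2 scale (SE 0.22, limma adjusted p = 0.00707). Cyp7b1, an oxysterol hydroxylase, rose by 0.79 (SE 0.13, limma adjusted p = 0.00376).

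Female-biased liver genes, on which the same hormone acts in the opposite sense, were split. Of 30 listed, 18 were in the table and 13 tested, of which 4 rose and 3 fell, with a median of 0.14. Without Alb-Cre replicate 4, 5 rose and 5 fell. Over all rows 8.48% were called higher and 23.3% lower, or 15.2% and 46.1% without that library. The risers were Cyp4a14 (log2 fold change 2.27, SE 0.49, limma adjusted p = 0.0117), Cyp4a10 (1.79), Cyp2a4 (0.99) and Cyp2c40 (0.98), all cytochrome P450 enzymes. Cyp4a14 was led by replicate 4, at 43.5 FPKM against 7.35 to 7.83 FPKM in replicates 1 to 3 and 1.52 to 1.95 FPKM in Alb-WT. Cyp2b10, the phenobarbital-inducible P450, fell to 1.13, 2.01, 1.84 and 2.18 FPKM from 11.2 to 14.1 FPKM (log2 fold change -2.30, SE 0.13, limma adjusted p = 4.03e-05). Lpl, lipoprotein lipase, had -1.08 and Rtn4, a shaper of endoplasmic reticulum tubules, -0.53, both past the test.

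Abundant secreted proteins of the same cells had a median close to that of all rows. Of 32 listed and tested, 1 rose and 3 fell, and the median log2 fold change was -0.08. Without Alb-Cre replicate 4, 9 rose and 14 fell, and none (0) rose without Alb-WT replicate 1 or without Alb-WT replicate 3. Shares over all rows were 8.48% higher and 23.3% lower, or 15.2% and 46.1% without Alb-Cre replicate 4. Serpina1b, an alpha-1-antitrypsin gene, rose by 0.33 (SE 0.08, limma adjusted p = 0.0169), a call lost in 4 of 17 alternatives. Fetub, fetuin B, fell by 0.80 (SE 0.09, limma adjusted p = 0.000747) and Plg, plasminogen, by 0.35 (SE 0.07, limma adjusted p = 0.00711). As a share of all FPKM the 32 genes made up 26.1% to 27.6% in Alb-Cre replicates 1 to 3, 29.4% in replicate 4 and 29.4% to 30.4% in Alb-WT.

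Of 12 other lipocalin genes 9 were in the table and tested. There was 1 rise and 1 fall (8.48% and 23.3% of all rows), with a median of 0.05. Obp2a, an odorant-binding lipocalin, rose to 7.34, 5.94, 8.83 and 2.75 FPKM from 0.553 to 1.60 FPKM (log2 fold change 1.94, SE 0.30, limma adjusted p = 0.0031). Orm3, an acute-phase orosomucoid, fell to 4.85, 3.40 and 4.85 FPKM in replicates 1 to 3 but stood at 52.5 FPKM in replicate 4, inside the Alb-WT range of 50.6 to 64.1 FPKM (log2 fold change -2.55, SE 0.69, limma adjusted p = 0.0253). That call was lost in 7 of 17 alternatives.

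**Figure D5:**
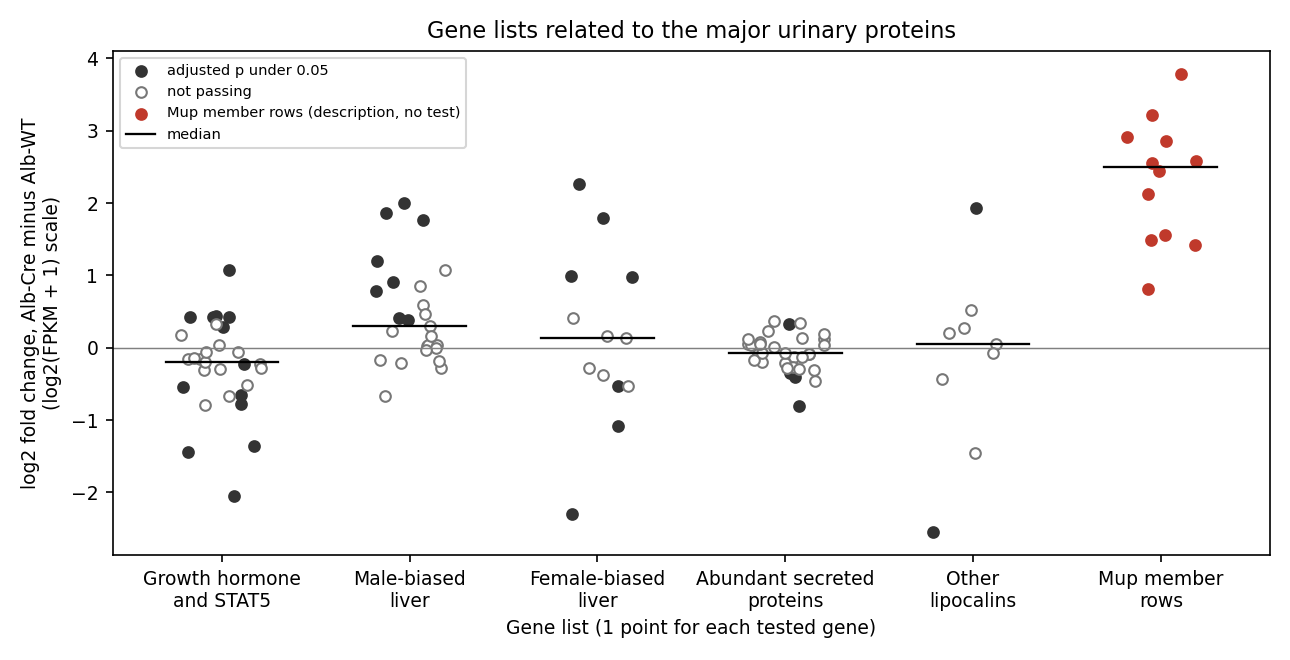
Log2 fold change (Alb-Cre minus Alb-WT, log2(FPKM + 1) scale) of each tested gene in 5 related gene lists and of the 12 member rows (red, a description with no test), with filled list points past an adjusted p of 0.05 and black lines at the medians. The member median of 2.50 stands beside list medians of -0.20 to 0.30.

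The rows most like the member sum over the 8 libraries were found by the root mean square difference between log2(FPKM + 1) profiles, each less its Alb-WT mean. Profiles were ranked among rows of at least 5 FPKM on average, whose median difference was 1.68. The closest was Ugt2b38 (0.33), a glucuronosyltransferase, at 19.0, 19.3, 16.9 and 2.82 FPKM in Alb-Cre and 2.43 to 2.71 FPKM in Alb-WT. It was followed by Nat8f5 (0.41), Rgs16 (0.46), a regulator of G protein signalling, Mup18 (0.47), Car3 (0.52), Hsd3b5 (0.52), Mup8 (0.52) and the elastase gene Cela1 (0.53). Hsd3b5, a male-specific steroid enzyme, was at 95.005, 92.7, 92.4 and 7.502 FPKM in Alb-Cre and 21.2 to 25.8 FPKM in Alb-WT. Car3, carbonic anhydrase of liver and fat, was at 717, 755, 730 and 74.4 FPKM against 189 to 205 FPKM. In Car3 and Hsd3b5, as in the member sum, replicate 4 was below every Alb-WT library while replicates 1 to 3 were above. These rows were chosen for the likeness, so it carries no test.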

How the data were processed

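RNA was measured in 8 mouse liver libraries, grouped and numbered by their titles. Illumina libraries were prepared from Trizol-extracted RNA, per the labels' protocols. The sample descriptions also name 10x Genomics, but the table has 1 column per library and no cells, so the values were treated as bulk. The deposited table holds FPKM for each gene, made by the authors. The aligner HISAT2 2.0.5 and the builds mm39 and hg38 are listed, with no role, per the submitters' processing notes. What counted the fragments, with which annotation and strand setting, and how fragments matching several genes were treated is not given in the sources used here. Coordinates come from GRCm38, the build of the reference at hand.

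Members and gene lists were chosen with earlier results of these data known. No value was 0. FPKM was turned back into fragments with GENCODE M21 exon lengths, and 12706 of 13452 genes gave whole fragments in all libraries (94.5%, tolerance 0.001), which set the totals per library. The 11077 rows averaging 0.5 FPKM or more entered a limma fit (version 3.58.1, R 4.3.3) of log2(FPKM + 1) on genotype, with empirical Bayes and an intensity trend. Calls needed an adjusted p (Benjamini-Hochberg) below 0.05, the threshold behind "rose" and "fell". The fit and the recovery were tested on simulated data. Sums, identities and figures were made with Python 3.11.15, numpy 2.4.6, pandas 2.3.3, Biopython 1.88 and matplotlib 3.10.9.

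Named were all members and other Mup rows, Bicd2, up to 4 called genes per direction of each list, 11 growth hormone pathway genes whatever their result, and the 8 rows most like the member sum. Some genes this rule takes are counted with their lists but not reported here by name. Cell type markers were given as sums. The groups share replicate numbers, but deviations of same-numbered libraries from their group means correlated at only -0.10 to 0.01, so the libraries were not treated as pairs. Alternatives were other pseudocounts, filters and scalings, the replicate number as a block, and each library left out.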

Additional observations from a re-analysis of the deposited data

Results flagged for a closer look

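A library was marked where its distance to the nearest other of its group was a larger part of the group's range than Dixon's critical value for 4 samples allows. Chance marks about 1 in 20 groups, and 25 values were marked, 22 of them in Alb-Cre replicate 4. In that library the member sum was 2205 FPKM and its share of all FPKM 0.552%. Of other Mup genes Mup3 was at 2690 FPKM, Mup14 at 480.8 FPKM, Mup21 at 148.0 FPKM and Mup18 at 8.403 FPKM, all below the other Alb-Cre libraries.

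Of the growth hormone list, Ghr (25.1 FPKM) and Onecut1 (0.789 FPKM) were low in Alb-Cre replicate 4, and Bcl6 (3.72 FPKM), Igfbp1 (164.4 FPKM) and Jak2 (4.57 FPKM) were high. Of sex-biased genes Nudt7 (43.1 FPKM), Selenbp2 (136.1 FPKM) and Serpina12 (12.2 FPKM) were low there, and Cyp4a10 (63.0 FPKM), Cyp4a14 (43.5 FPKM) and Lpl (6.82 FPKM) were high. The lipocalin Orm3 was high at 52.5 FPKM. Of the genes most like the member sum Ugt2b38 (2.82 FPKM), Car3 (74.4 FPKM), Hsd3b5 (7.502 FPKM) and Cela1 (4.39 FPKM) were low.

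In Alb-WT, replicate 1 had a low Bcl6 level of 5.18 FPKM, and replicate 4 had a low Ghr level of 47.1 FPKM and a high Obp2a level of 1.60 FPKM.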

How the results depend on the processing

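The log2 fold changes of all 12 member rows stayed positive under each of the 17 alternatives, and the ratio of the group means of the member share ran from 3.89 (without Alb-Cre replicate 1) to 5.71 (without Alb-Cre replicate 4), or 2.21 with all Mup rows counted. The median log2 fold change of all rows was -0.13, and -0.19 after rescaling to a common FPKM sum, 0.02 with median-of-ratios scaling and 0.02 with quantile normalization. Over all rows 939 were called higher and 2582 lower. This became 623 higher with a common FPKM sum, 1874 higher and 1516 lower with median-of-ratios scaling, 1522 higher and 1478 lower with quantile normalization, and 981 lower with a filter at 5 FPKM. Leaving out 1 library gave 546 to 1679 higher and 1205 to 5112 lower, both highest without Alb-Cre replicate 4. With the replicate number as a block, 613 rows were called higher and 1631 lower, 3 growth hormone genes and 0 secreted protein genes higher, and every other list count stayed within 1.5 times. A filter at 5 FPKM left 3 growth hormone genes and 2 female-biased genes higher and 5 secreted protein genes lower, and no filter gave 5 female-biased genes lower. A common FPKM sum gave 1 male-biased and 7 secreted protein genes lower, quantile normalization 1 and 10. Median-of-ratios scaling gave 2 secreted protein genes higher and 1 lower, and a pseudocount of 5 gave 5 lower. With 1 library left out, growth hormone genes called higher were 3 to 7 and lower 5 to 15, male-biased genes 5 to 17 and 0 to 2, female-biased genes 4 to 5 and 3 to 5, and secreted protein genes 0 to 9 and 2 to 14. The cause of these differences was not tested. Library totals limit low rows such as Mup2 and Mup10 most.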
